A study of Mus musculus with 8 samples.

Results

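The RNA response of mouse abdominal skin 4 h after topical shikonin is described here from the 4 arrays hybridized with skin taken at that time, out of 8 arrays in the series. The arrays were chosen by their labels. The pair from skin treated with shikonin was set against the pair from skin treated with the solvent acetone alone, and the 4 arrays of skin taken 24 h after the same treatments were used for the comparison of times. According to the methods, female C57BL/6JNarl mice aged 6 to 8 weeks received 100 μL of acetone holding 10 μg/μL shikonin, a red naphthoquinone from the roots of Lithospermum, or 100 μL of acetone alone, on a marked area of the abdomen that was then left to dry. The excised skin was frozen and homogenized whole, so that epidermis, hair follicles, dermis and the muscle beneath can all be in the RNA.

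Skin meets a chemical insult in layers. Keratinocytes, the epithelial cells of the epidermis and hair follicle, make the cornified barrier above and the hair shaft below, and when stressed they release alarm cytokines and chemokines that draw neutrophils from the blood within hours. A quinone can react with thiols and cycle between redox states, and cells answer such compounds through NRF2, a transcription factor that switches on glutathione and antioxidant genes, through ATF4, which switches on genes of amino acid shortage and protein stress, and through the immediate early genes of the AP-1 family.

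All values below are log2 intensities of the Cy5 label, and a change is the mean of the shikonin 4 h arrays minus the mean of the acetone 4 h arrays on that scale, given with its standard error. Of 29922 probes, 13853 have a value on every array. They name 9987 genes, each taken from its brightest probe. Values under 203.4 were raised to that level, 7.67 on the log2 scale and called the floor here, and probes at 65000 or above, near 16.00 on the log2 scale, were taken as saturated. The array medians lay between 1129 and 1130, and the authors' normalization between arrays was inferred from that. Pearson correlations across probes were 0.986 between the shikonin 4 h arrays and 0.992 between the acetone 4 h arrays. The arrays matched their labelled tissue. The basal keratin Krt14 read 16.00 and 15.92 in shikonin skin, against 15.87 and 15.88 in acetone skin, and the collagen gene Col1a1 read 13.51 and 13.80 in shikonin skin, against 14.49 and 14.56 in acetone skin. The paper speaks of duplicate samples and of independent experiments, but it and the labels name no animal behind an array, so p-values measure only the spread between arrays, which may be technical. A permutation of 2 against 2 arrays cannot give an exact two-sided p under 0.333, and the tests below come from limma fitted over all probes, with Benjamini-Hochberg adjustment and a threshold of 0.05.

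Shikonin moved a large share of the genes measured at 4 h. Of the 9987 genes, 2038 (20.4%) rose and 2648 (26.5%) fell, and the median change over all genes was -0.07. Far fewer moved far. A change of at least 2-fold that also passed the test was found for 792 genes that rose (7.93%) and 715 that fell (7.16%). Both shikonin arrays lay above both acetone arrays for 32.3% of the genes and below both for 41.7%, which is the background for statements below that groups did not overlap. The effect at 4 h differed from that at 24 h for 4451 genes (44.6%). Among genes past the test at both times and for the difference, 279 rose at 4 h and fell at 24 h, 347 fell at 4 h and rose at 24 h, and 1214 moved the same way at both times by unequal amounts. The count of a gene list is read below against 20.4% higher and 26.5% lower.

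**Figure D1:**
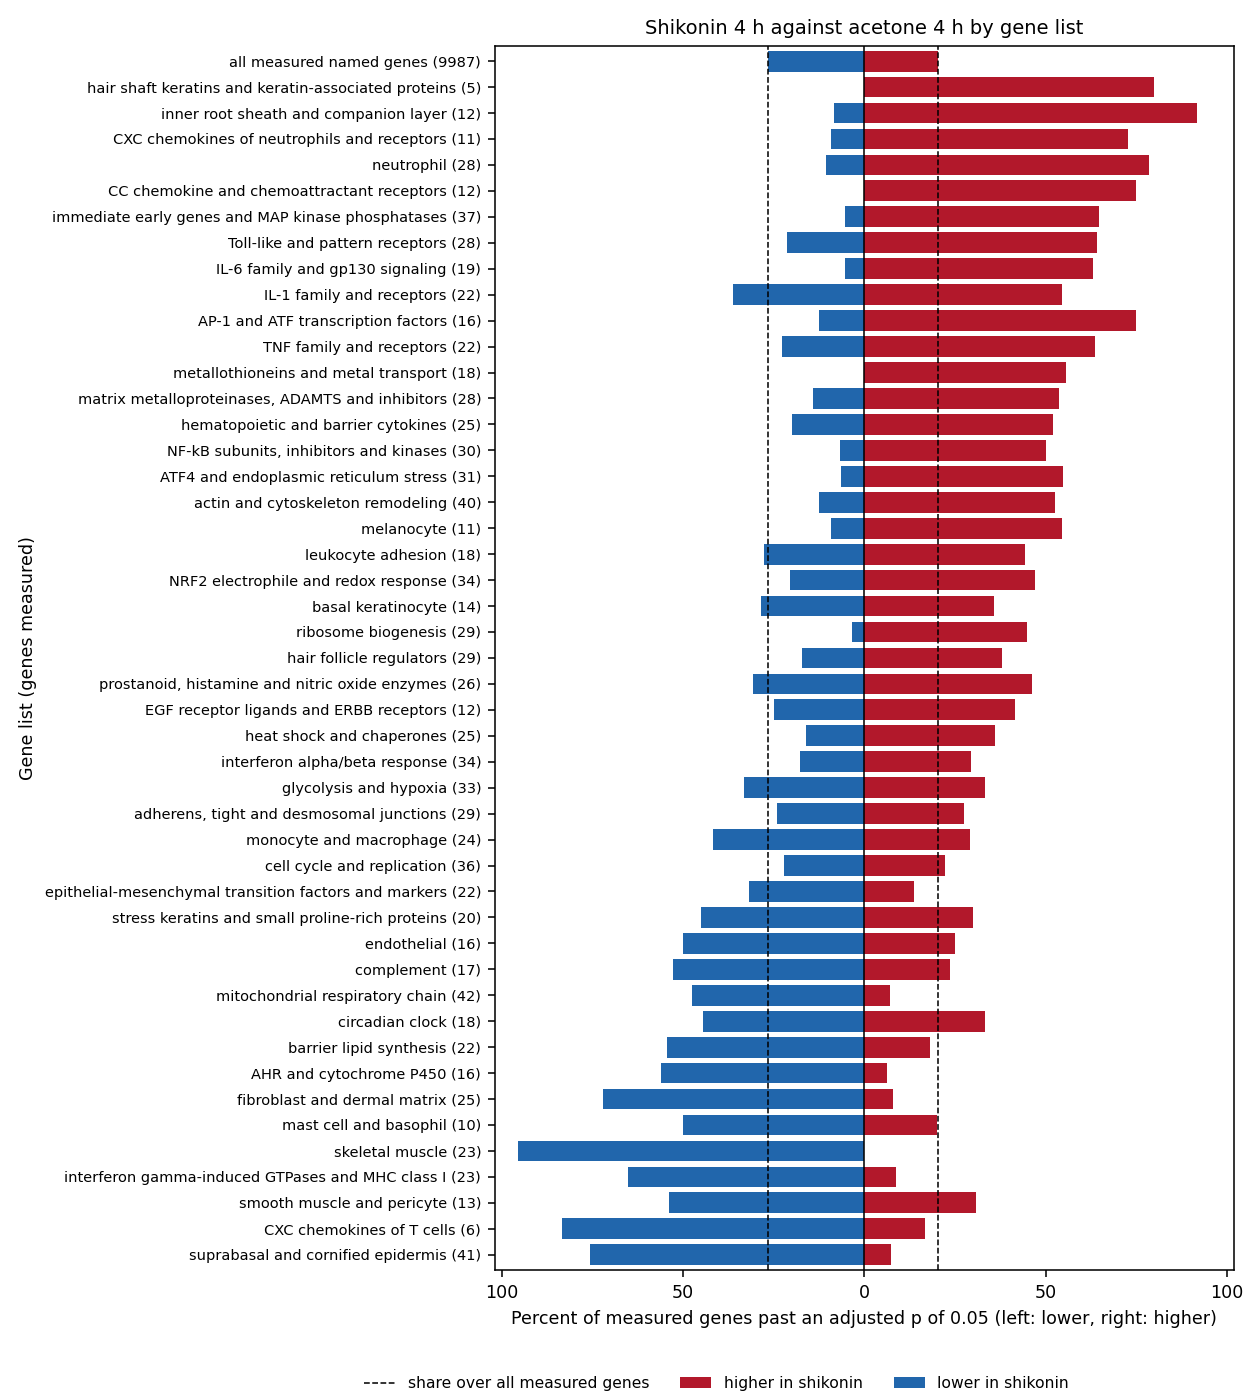
Percent of the measured genes of each list (number in brackets) that rose, bars to the right, or fell, bars to the left, in shikonin 4 h over acetone 4 h skin, ordered by the median change of the list, with dashed lines at the shares over all 9987 genes (20.4% higher, 26.5% lower). The hair shaft, inner root sheath, CXC chemokine and neutrophil lists stand at the top with 80%, 91.7%, 72.7% and 78.6% of their members higher, and the cornified epidermis at the bottom with 75.6% lower.

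Structural genes of the growing hair follicle were among those with the largest changes at 4 h. The inner root sheath is the sleeve of keratinocytes that moulds the hair as it grows. Of 18 listed genes of the sheath and its companion layer 12 were measured, 11 rose and 1 fell, with a median change of 4.46. Krt26, a keratin of the sheath cuticle, read 15.19 and 15.21 in shikonin skin, against 8.58 and 8.48 in acetone skin. Krt71, a type II keratin of the sheath, read 15.13 and 15.38 in shikonin skin, against 9.20 and 9.40 in acetone skin. Both shikonin arrays lay near the top of the scale and both acetone arrays near the floor. Krt27 read 15.22 and 14.83 in shikonin skin, against 10.24 and 10.31 in acetone skin, a 26.9-fold change (4.75 ± 0.15, adjusted p = 5.71e-08). The sheath keratins Krt28, Krt25 and Krt73 changed by 4.17, 3.98 and 3.78 on the log2 scale. Padi3, the enzyme that converts arginine to citrulline in trichohyalin of the sheath, read 13.19 and 13.00 in shikonin skin, against 8.18 and 8.37 in acetone skin (28.2-fold). S100a3, its substrate in human hair cuticle, changed by 5.26 ± 0.17. The exception was Gata3, a transcription factor that the sheath needs, which fell by 0.65 (adjusted p = 0.00367).

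Keratins of the hair shaft moved the same way. Of 37 listed shaft keratins and keratin-associated proteins only 5 had values, 4 of which rose and 0 fell, also 0 at an unadjusted limma p under 0.05. Krt33a read 13.77 and 13.94 in shikonin skin, against 7.67 and 7.67 in acetone skin, so the rise of at least 73-fold is set from below by the floor. Krt86 rose at least 34.3-fold on the same terms. Krt36 read 12.51 and 12.11 in shikonin skin, against 7.67 and 7.71 in acetone skin (24.6-fold). Krt35, of the hair matrix and cuticle, was already well above the floor in acetone skin and changed least, with 12.83 and 13.08 in shikonin skin, against 11.23 and 10.65 in acetone skin (2.02 ± 0.21). No array of shikonin skin overlapped an array of acetone skin for these genes, which the rule for the 15 largest rises required of Krt33a and Krt86.

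Regulators of the follicle did not move as a block. Of 29 measured, 11 rose, 5 fell and 13 did not pass, with a median of 0.17. Several that act in the hair-forming matrix were among those that rose. Hoxc13, a homeobox factor that switches on hair keratins, read 12.07 and 11.90 in shikonin skin, against 8.97 and 8.91 in acetone skin (8.27-fold, adjusted p = 1.48e-06). The homeobox genes Dlx3 and Msx2, both active in matrix cells, changed by 1.93 and 1.86, the factor Elf5 by 1.76, and Shh, the secreted signal of the growing matrix, by 1.17. Sostdc1 and Nfatc1 were among those that fell, and so was Krt15, which the basal list holds. Krt15, a keratin of bulge and basal cells, read 13.20 and 12.73 in shikonin skin, against 14.57 and 14.55 in acetone skin. Sostdc1, a secreted inhibitor of BMP and WNT signals, was at the floor on both shikonin arrays and read 10.13 and 10.28 in acetone skin, at least 5.82-fold lower. Nfatc1, which holds bulge stem cells at rest, changed by -1.24 on its brightest probe and by -0.01 on its other probe, which lay near the floor.

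Pigment cell genes rose in part. Of 11 measured melanocyte genes 6 rose, 1 fell and 4 did not pass (median 0.40). The log2 of their summed intensity was 15.15 to 15.16 in shikonin skin, against 14.13 to 14.15 in acetone skin. Those named here are taken from the 6 that rose. Mlana, a melanosome protein, read 11.37 and 11.75 in shikonin skin, against 8.69 and 8.81 in acetone skin (7.01-fold). Dct and Tyrp1, enzymes of melanin synthesis, and Pmel, which builds the fibrils melanin is laid on, changed by 1.97, 1.16 and 1.99, with 1.26 on the other probe of Dct. In whole skin, more cells of a type and more RNA per cell cannot be told apart, and neither can fewer cells and less RNA. Mouse follicles pass through growth and rest, and the sources used here do not name the stage of the sampled skin.

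The 10 follicle and pigment genes plotted by array were picked from those that rose at 4 h, and those that fell, such as Sostdc1, are not plotted. Each of the 10 was brightest on the 2 shikonin 4 h arrays of all 8. Krt26 read 7.88 and 7.67 in shikonin skin at 24 h, against 8.65 and 8.46 in acetone skin at 24 h, and Krt71 was at the floor on both shikonin 24 h arrays. For all 12 measured genes of the inner root sheath list the signed change at 4 h lay above that at 24 h and the difference passed, with a median change of -2.17 at 24 h. Gata3 is among them with a smaller fall at 4 h (-0.65) than at 24 h (-3.68). The change of Dct was 1.97 at 4 h and -3.40 at 24 h. With the acetone 24 h arrays in place of the acetone 4 h arrays, the 4 h shikonin arrays still gave 6.65 for Krt26, 5.34 for Krt71 and 5.89 for Krt33a.

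**Figure D2:**
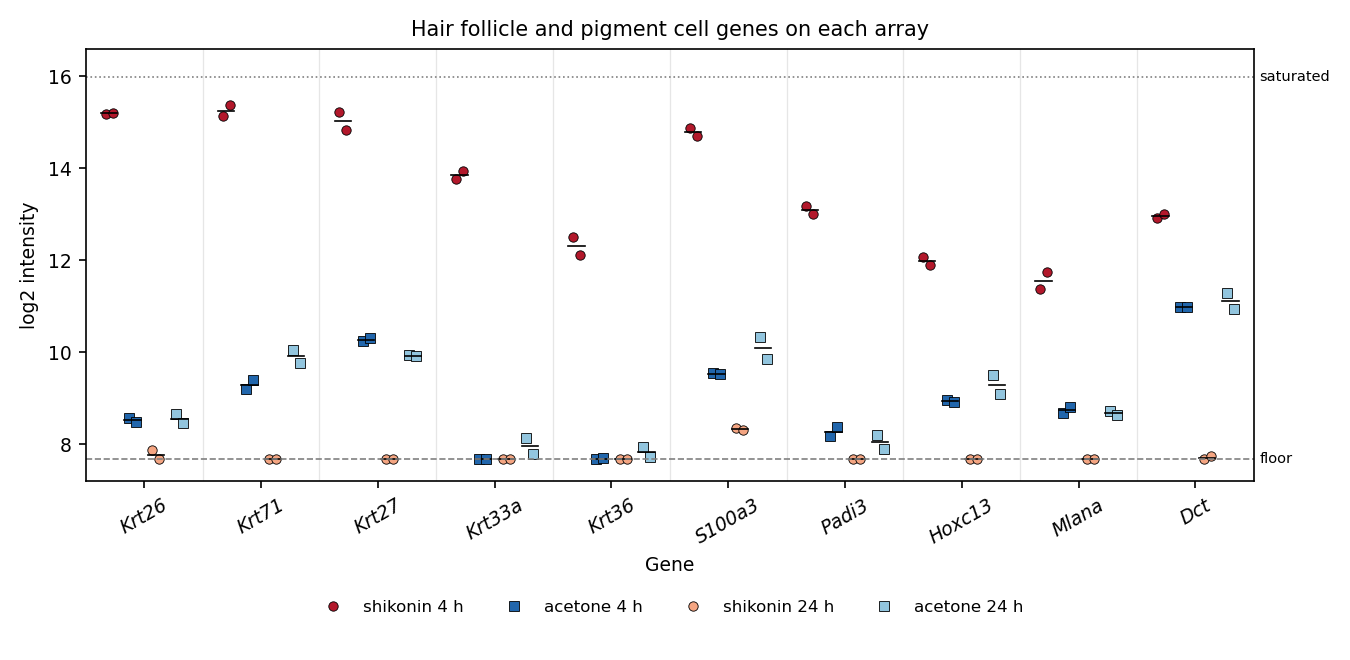
Log2 intensity of 10 hair follicle and pigment cell genes on each array, in the order shikonin 4 h, acetone 4 h, shikonin 24 h and acetone 24 h, with the group mean as a bar, the floor as a dashed line (7.67) and saturation as a dotted line. The genes were picked from those that rose at 4 h. The shikonin 4 h arrays (dark circles) are the highest for every gene shown, and those of shikonin 24 h lie at or near the floor.

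Idi2, on none of the follicle lists, had the largest measured change among the named genes, though several others are known only as lower bounds. It encodes an isopentenyl diphosphate isomerase, an enzyme of the isoprenoid pathway that leads to sterols. It read 15.09 and 15.39 in shikonin skin, against 8.26 and 8.24 in acetone skin, 127-fold higher (6.99 ± 0.14). Crym, a cytosolic binder of thyroid hormone that the root sheath list also holds, read 14.54 and 13.92 in shikonin skin, against 9.04 and 9.26 in acetone skin. At 24 h both had changed the other way, by -1.58 and -0.83.

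The upper epidermis lost transcripts. Of 41 measured genes of the suprabasal and cornified layers 31 fell and 3 rose, with a median change of -1.81. Flg, which encodes the filaggrin precursor that bundles keratin and then feeds the natural moisturizing factor, read 9.45 and 9.68 in shikonin skin, against 14.80 and 14.81 in acetone skin. Its change, -5.24 ± 0.15, was the largest measured fall among the named genes, some of which, such as Lce1m and Serpinb12, are known only as lower bounds. Loricrin (Lor), the main protein of the cornified envelope, read 13.59 and 13.20 in shikonin skin, against 15.84 and 16.00 in acetone skin. With an acetone array saturated, the fall is at least 5.75-fold. Krt10, the suprabasal keratin, read 13.00 and 13.07 in shikonin skin and was saturated on both acetone arrays, at least 7.81-fold lower, while its dimmer and unsaturated probe changed by -3.94. Krt1, the partner of Krt10, read 9.52 and 9.46 in shikonin skin, against 12.18 and 11.94 in acetone skin (5.95-fold lower).

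Late envelope genes fell with these keratins. Lce1b, Lce1c, Lce1a2 and Lce1e, small proteins that reinforce the envelope, changed by -3.39, -3.36, -3.87 and -3.30, and Lce1m fell at least 23.5-fold. Casp14, the protease that cuts filaggrin into its moisturizing fragments, read 9.50 and 9.45 in shikonin skin, against 12.38 and 12.35 in acetone skin (7.42-fold lower). Serpinb12, a protease inhibitor of the upper layers, was at the floor on both shikonin arrays, against 12.23 and 12.13 in acetone skin. Shikonin and acetone arrays did not overlap for these genes. For all but Casp14 this was fixed by the rule that chose the 15 largest falls, which required it. The 3 that rose were the transglutaminases Tgm3 (1.62), which also works in the hair follicle, and Tgm1 (0.71), and Lce3b (1.54), a member of the group of late envelope genes that wounded skin makes.

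Genes of barrier lipids were part of the fall. Of 22 measured genes of barrier lipid synthesis 12 fell and 4 rose (median -0.43). Alox12e, an epidermal lipoxygenase, read 11.52 and 11.71 in shikonin skin, against 14.75 and 14.76 in acetone skin (8.82-fold lower, adjusted p = 7.59e-08). Lipm, an acid lipase of the granular layer, changed by -1.81. Junction genes were split, with 8 higher and 7 lower of 29. Cldn23, a claudin of tight junctions, read 8.02 and 8.18 in shikonin skin, against 11.14 and 11.17 in acetone skin (8.28-fold lower). The tight junction adaptor Cgn and the desmosomal cadherin of the upper layers Dsg1a were 3.93-fold and 4-fold lower, whereas Dsc3, a desmosomal cadherin of the basal layer, was at the floor on both acetone arrays and read 9.63 and 9.50 in shikonin skin.

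The basal layer changed less. Of 14 measured genes 5 rose and 4 fell (median 0.29). Krt14 changed by 0.08, with 1 of the 2 shikonin arrays saturated (adjusted p = 0.314). Krt5 read 12.61 and 12.86 in shikonin skin, against 13.38 and 13.31 in acetone skin (-0.61 ± 0.14), and Col17a1, an anchor of basal cells to the basement membrane, changed by -1.18. Klf4, a transcription factor that drives the barrier program, changed by -1.40, and by -0.56 and -0.64 on its other probes.

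**Figure D3:**
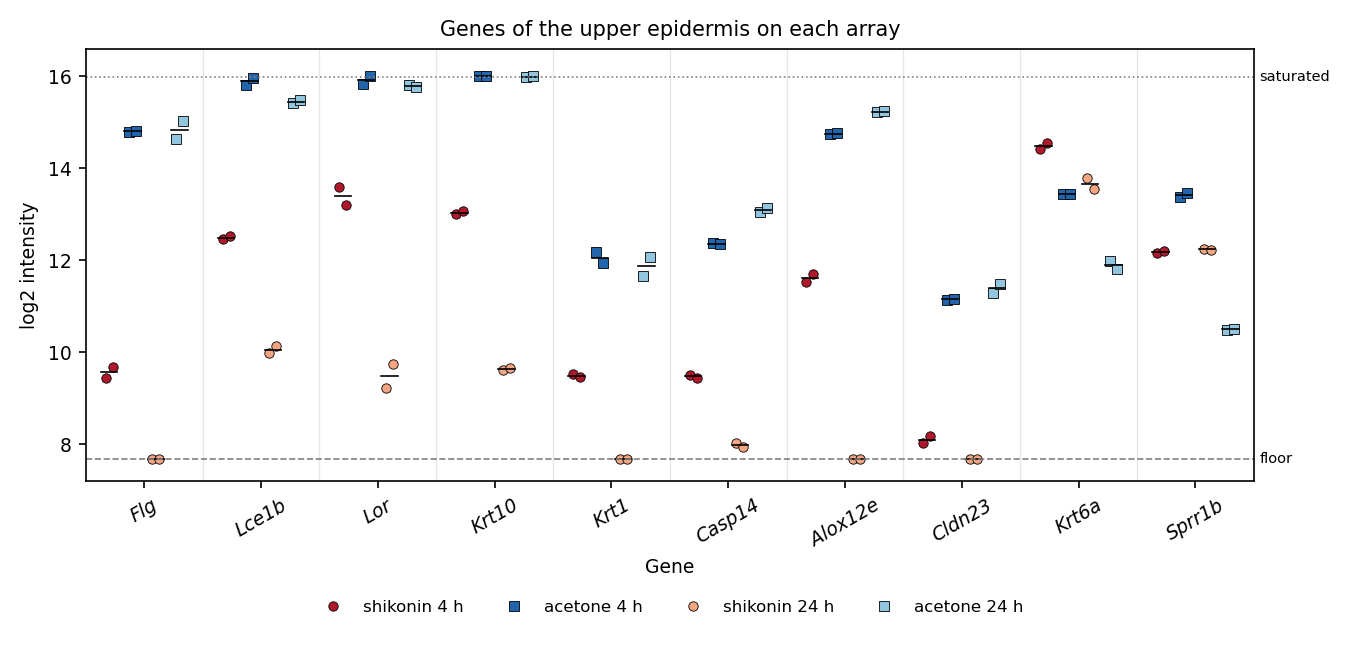
Log2 intensity of 10 epidermal genes on each array, in the order shikonin 4 h, acetone 4 h, shikonin 24 h and acetone 24 h, with the group mean as a bar, the floor as a dashed line and saturation as a dotted line. Flg, Lce1b, Lor, Krt10, Krt1, Casp14, Alox12e and Cldn23 are lower on both shikonin 4 h arrays than on both acetone 4 h arrays, Krt6a is higher, and Sprr1b is lower than acetone 4 h and higher than acetone 24 h.

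Keratins and envelope proteins of injured epidermis did not rise together at 4 h. Of 20 measured genes 6 rose and 9 fell (median -0.28). Krt6a, a keratin that keratinocytes switch on after wounding, read 14.43 and 14.55 in shikonin skin, against 13.44 and 13.44 in acetone skin (2.08-fold), and its other probes changed by 1.97 and 2.13. Sprr1b, a small proline-rich envelope protein that is made under stress, read 12.17 and 12.20 in shikonin skin, against 13.37 and 13.46 in acetone skin. It therefore fell by 1.23. Acetone skin at 24 h had less of it, and against those arrays the same shikonin arrays were 1.68 higher. Sprr2i behaved alike, with -2.02 against acetone 4 h and 1.61 against acetone 24 h, and the median of the list with -0.28 and 1.95. The direction of these genes at 4 h depended on which acetone arrays they were set against, whereas Krt6a rose against both (1.06 and 2.59).

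Early response genes were high at 4 h. Of 16 measured AP-1 and ATF factors 12 rose and 2 fell (median 0.79), and of 37 immediate early genes and MAP kinase phosphatases 24 rose and 2 fell (median 1.12). Ccn1, a secreted matrix protein whose gene answers serum and YAP signals, read 11.85 and 12.10 in shikonin skin, against 7.67 and 7.79 in acetone skin (19-fold, 4.25 ± 0.15), and its other probe changed by 2.32. Among AP-1 factors Maff, Junb, Fosl1 and Fos changed by 2.21, 1.90, 1.55 and 1.49. Zfp36, which binds and destabilizes cytokine mRNAs, read 15.20 and 14.95 in shikonin skin, against 12.67 and 12.82 in acetone skin (5.05-fold). Gadd45a, a stress sensor, Myc, a growth-promoting transcription factor, Ier3, a survival factor, Btg2, an inhibitor of proliferation, and Egr1, a zinc finger factor, changed by 2.45, 2.30, 2.24, 1.98 and 1.31. For each of these genes both shikonin arrays lay above both acetone arrays. The difference between the 4 h and 24 h effects passed for Myc, larger at 4 h (1.08), and for Fos, Fosl1 and Ier3, smaller at 4 h (-0.68, -1.68 and -0.71). In shikonin skin Fos, Fosl1 and Ier3 averaged 14.98, 13.25 and 14.35 at 4 h, and 14.61, 11.69 and 14.34 at 24 h. In acetone skin they averaged 13.49, 11.70 and 12.11 at 4 h, and 12.44, 8.46 and 11.40 at 24 h.

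NF-kB is a dimeric transcription factor held in the cytoplasm by inhibitors that it induces itself. Of 30 measured subunits, inhibitors and kinases 15 rose and 2 fell (median 0.52). The subunit genes Nfkb1 and Rela changed by 1.56 and 0.90. Tnfaip3, the A20 protein that shuts the pathway off, read 12.97 and 13.05 in shikonin skin, against 10.89 and 10.73 in acetone skin (4.59-fold). The feedback and adaptor genes Traf1, Bcl3 and Tnip1 changed by 1.62, 1.59 and 1.54. Nfkbia, the best known inhibitor, read 14.27 and 13.58 in shikonin skin, against 13.36 and 13.60 in acetone skin, so that the groups overlapped and it did not pass (adjusted p = 0.273).

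Chemokines that draw neutrophils were among the largest changes. Of 11 measured CXC chemokines of neutrophils and their receptors 8 rose and 1 fell (median 2.91). Cxcl2 read 16.00 and 15.99 in shikonin skin, against 10.47 and 10.53 in acetone skin, and its rise of at least 45.1-fold is cut by saturation. Cxcl1 was as bright on the shikonin arrays, 16.00 and 15.99, against 13.02 and 13.11 in acetone skin (at least 7.63-fold). Cxcl3 was at the floor on both acetone arrays and read 11.90 and 11.50 in shikonin skin (at least 16.4-fold). Cxcl5, made by epithelial cells, read 15.67 and 15.56 in shikonin skin, against 12.24 and 12.20 in acetone skin (10.5-fold). Their receptor gene Cxcr2, expressed by neutrophils, read 15.47 and 15.59 in shikonin skin, against 10.90 and 10.92 in acetone skin (24.6-fold, 4.62 ± 0.10). Another probe of Cxcr2 changed by 2.25. The effect on Cxcr2 was smaller at 4 h than at 24 h, with a difference of -1.32 on the log2 scale. Its mean went from 15.53 at 4 h to 14.91 at 24 h in shikonin skin, and from 10.91 to 8.97 in acetone skin. For Cxcl1 and Cxcl2, at or near saturation in shikonin skin at both times, the effects at the 2 times could not be compared. In acetone skin at 24 h Cxcl1 read 9.44 and 9.61, and Cxcl2 read 8.06 and 8.15.

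Cxcl1, Cxcl2 and Cxcl3 lie on mouse chromosome 5, and their promoters are shown because these neighbours rose together and hold the same letters near the gene start. The sequences come from the RefSeq promoter table for GRCm38.p6, each a window of 300 bases around the gene start on the plus strand, at chr5:90890995-90891294 for Cxcl1, chr5:90903649-90903948 for Cxcl2 and chr5:90785851-90786150 for Cxcl3. Capitals mark matches, on either strand, to the motif GGGA, any 4 letters and CC, the kind of letters that NF-kB dimers bind.
Cxcl1: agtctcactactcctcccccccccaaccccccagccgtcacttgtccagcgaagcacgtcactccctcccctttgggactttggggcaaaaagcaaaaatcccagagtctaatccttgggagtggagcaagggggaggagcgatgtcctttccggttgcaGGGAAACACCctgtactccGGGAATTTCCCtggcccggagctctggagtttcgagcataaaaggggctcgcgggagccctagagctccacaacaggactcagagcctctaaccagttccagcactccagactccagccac
Cxcl2: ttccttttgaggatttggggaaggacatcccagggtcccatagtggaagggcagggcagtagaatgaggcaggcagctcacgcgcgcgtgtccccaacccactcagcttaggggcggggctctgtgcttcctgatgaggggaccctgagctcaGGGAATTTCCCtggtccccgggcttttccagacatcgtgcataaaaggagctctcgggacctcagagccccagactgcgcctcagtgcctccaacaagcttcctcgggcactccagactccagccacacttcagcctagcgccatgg
Cxcl3: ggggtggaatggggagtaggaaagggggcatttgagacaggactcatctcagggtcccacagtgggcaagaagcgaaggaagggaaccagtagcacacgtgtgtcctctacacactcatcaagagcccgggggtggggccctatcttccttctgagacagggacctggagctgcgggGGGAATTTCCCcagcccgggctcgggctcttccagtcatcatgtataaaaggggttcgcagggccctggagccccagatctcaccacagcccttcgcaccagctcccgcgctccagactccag

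The shared run GGGAATTTCCC, of 11 letters, holds overlapping matches on both strands and begins 71 bases before the gene start in Cxcl1, 97 in Cxcl2 and 73 in Cxcl3. Cxcl1 has a further match, which gives it 3 in all. The run was chosen after the sequences were seen, and it stands in 14 of the 32851 promoters of the table (0.0426%) on either strand. The shorter motif is common, in 20.7% of all promoters. It was found in 4 of the 12 promoters matched from the chemokine and receptor list, those of Cxcl1, Cxcl2, Cxcl3 and Cxcr1, and in 18 of the 40 matched from the NF-kB list (45%). A match describes letters and not a bound site.

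CC chemokines were mixed, with 7 higher and 4 lower of 17 measured (median 0.15). Ccl3 read 15.41 and 15.08 in shikonin skin, against 10.14 and 10.47 in acetone skin, and Ccl4, its neighbour and close relative, read 15.83 and 15.66 in shikonin skin, against 11.64 and 11.77 in acetone skin (16.5-fold). Ccl2, the main attractant of blood monocytes, read 15.89 and 16.00 in shikonin skin, against 12.99 and 12.94 in acetone skin (at least 7.87-fold), and Ccl7 changed by 2.11. The opposite held for the list of T cell chemokines, which also holds the receptor Cxcr5. Of its 6 measured genes 5 fell and 1 rose, Cxcl14 (1.66), which keratinocytes make without inflammation. Cxcl9, which interferon gamma induces, read 11.67 and 11.77 in shikonin skin, against 14.70 and 14.65 in acetone skin (7.72-fold lower), and its other probe changed by -2.09. Against acetone 24 h the change of Cxcl9 was -0.02, and that of Cxcl10, which fell by 1.10 against acetone 4 h, was 1.42. Ccl5 likewise changed by -1.69 against acetone 4 h and by 0.19 against acetone 24 h. Ccl8, made by resident macrophages of skin, was split within its group, with 12.48 and 7.67 in shikonin skin, against 14.14 and 13.81 in acetone skin, and did not pass (adjusted p = 0.103).

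Genes of neutrophils themselves were higher. Of 28 measured markers 22 rose and 3 fell (median 2.58), and the log2 of their summed intensity was 19.06 to 19.07 in shikonin skin, against 17.64 to 17.77 in acetone skin. Mmp8, the collagenase stored in neutrophil granules, read 13.80 and 13.24 in shikonin skin, against 8.68 and 9.0 in acetone skin (25.6-fold). Trem1, an activating receptor of neutrophils and monocytes, was at the floor on both acetone arrays and read 12.34 and 12.17 in shikonin skin (at least 24.1-fold). Retnlg, a resistin-like protein of mouse neutrophils, was saturated on both shikonin arrays and read 12.67 and 12.65 in acetone skin. Lcn2, an iron-trapping granule protein that keratinocytes also make, read 14.66 and 14.72 in shikonin skin, against 10.65 and 10.51 in acetone skin (17.3-fold). S100a9 changed by 2.25, while its partner S100a8 was near saturation in both groups, 16.00 and 15.84 in shikonin skin, against 15.89 and 15.72 in acetone skin. Mpo, a granule enzyme transcribed in marrow precursors rather than in mature neutrophils, read 11.21 and 11.26 in shikonin skin, against 11.50 and 11.64 in acetone skin, and did not pass (adjusted p = 0.0593). Its other probe fell by 0.52 and passed the limma test (adjusted p = 0.0259).

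Receptors by which myeloid cells sense chemoattractants and microbes moved with these markers. Of 12 measured chemoattractant receptors 9 rose and 0 fell by limma (also 0 at an unadjusted p under 0.05), and of 28 measured Toll-like and pattern receptors 18 rose and 6 fell (median 1.09). Ptx3, a soluble pattern receptor, was saturated on both shikonin arrays and averaged 11.07 over the acetone arrays (at least 30.4-fold). Cd14, the coreceptor for endotoxin, read 16.00 and 15.88 in shikonin skin, against 12.54 and 12.51 in acetone skin (at least 10.7-fold). Clec4e, a lectin receptor for glycolipids and dead cells, and Tlr2, which senses lipopeptides, changed by 3.61 and 2.35. Sele, the E-selectin by which inflamed vessels catch leukocytes, was at the floor in acetone skin and read 10.24 and 10.15 in shikonin skin, and Icam1, the next adhesion step, changed by 1.42. Of the leukocyte adhesion list 8 of 18 rose and 5 fell. The neutrophil marker sum moved with the cytokines, chemokines and receptors described here, and its part in their levels was not tested.

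**Figure D4:**
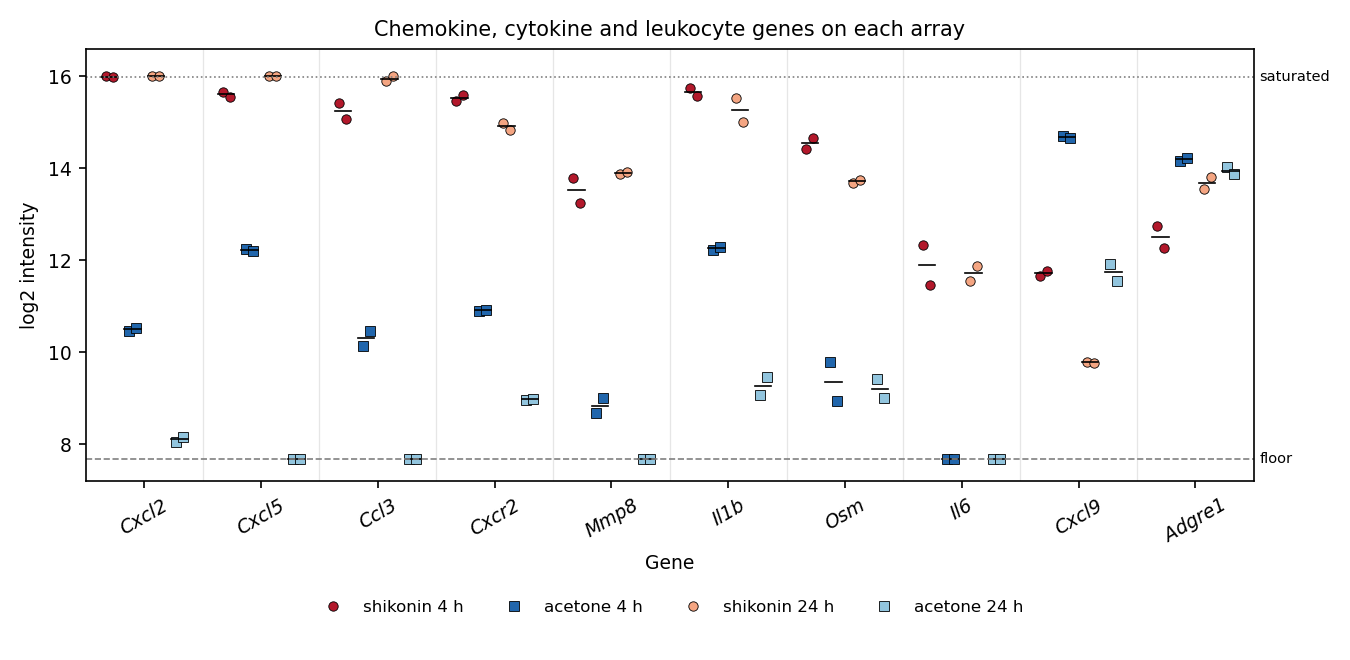
Log2 intensity of 10 chemokine, cytokine and leukocyte genes on each array, in the order shikonin 4 h, acetone 4 h, shikonin 24 h and acetone 24 h, with the group mean as a bar, the floor as a dashed line and saturation as a dotted line. The first 8 genes are higher on both shikonin 4 h arrays than on both acetone 4 h arrays, and Cxcl9 and Adgre1 are lower. Cxcl2, Cxcl5, Ccl3 and Il1b read less in acetone skin at 24 h than in acetone skin at 4 h.

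The monocyte and macrophage list was split, with 7 higher and 10 lower of 24 (median -0.08, and 0.48 with the acetone 24 h arrays as control). The log2 of the summed intensity of the list was 17.89 to 17.94 in shikonin skin, against 17.41 to 17.47 in acetone skin. Cd14 and Arg1, both on this list, rose at least 10.7-fold and at least 5.8-fold. The other macrophage genes named here are taken from those that fell. Adgre1, the F4/80 antigen, read 12.75 and 12.26 in shikonin skin, against 14.17 and 14.22 in acetone skin (3.22-fold lower, adjusted p = 3.63e-05). Csf1r, the receptor that keeps macrophages alive, C1qa, a complement subunit they make, and Trem2, a lipid receptor, changed by -0.94, -1.37 and -1.79. Cd209f, a lectin gene of the DC-SIGN cluster and on none of the lists, read 8.32 and 8.53 in shikonin skin, against 11.51 and 11.75 in acetone skin (9.22-fold lower). Cd163, the haemoglobin scavenger receptor, changed by -1.38 against acetone 4 h and by 0.49 against acetone 24 h, and its call was lost without the acetone 4 h replicate 1 array (-1.24) or the shikonin 4 h replicate 2 array (-0.89). Ciita, the master switch of MHC class II and on the Langerhans list, was at the floor in shikonin skin and read 9.60 and 9.69 in acetone skin. Mast cell genes fell in 5 of 10 cases and rose in 2, with the granule protease Cpa3 at 13.47 and 13.63 in shikonin skin, against 14.89 and 14.78 in acetone skin.

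Cytokines that signal through gp130 rose at 4 h. Of 19 measured members of the IL-6 family and its pathway 12 rose and 1 fell (median 0.94). Osm, oncostatin M, read 14.42 and 14.67 in shikonin skin, against 9.78 and 8.94 in acetone skin. Il6 was at the floor on both acetone arrays and read 12.33 and 11.47 in shikonin skin (at least 18.8-fold). Il11 changed by 2.35, and Socs3, the feedback inhibitor of gp130, read 15.66 and 15.62 in shikonin skin, against 13.22 and 13.50 in acetone skin (4.87-fold). The difference between the 4 h and 24 h effects did not pass for Osm (0.67, adjusted p = 0.155) or Il6 (0.18, adjusted p = 0.708), whereas Il11 and Socs3 had larger effects at 24 h. From 4 h to 24 h the mean of Il11 went from 11.41 to 12.91 in shikonin skin and from 9.05 to 9.06 in acetone skin. That of Socs3 went from 15.64 to 15.12 in shikonin skin and from 13.36 to 11.86 in acetone skin.

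Growth factors of blood cells and cytokines of the barrier were also raised, with 13 of 25 measured higher and 5 lower (median 0.54). Csf3, which mobilizes neutrophils from the marrow, was at the floor on both acetone arrays and read 12.60 and 12.53 in shikonin skin (at least 29.8-fold, adjusted p = 2.79e-08). Il24, an IL-20 family cytokine made by keratinocytes, read 12.35 and 12.63 in shikonin skin, against 8.36 and 8.32 in acetone skin (17.8-fold), and Il19 of the same family rose at least 4.99-fold. The anti-inflammatory cytokine Il10 read 9.27 and 9.03 in shikonin skin, against 7.86 and 8.06 in acetone skin (2.28-fold), close to the floor. Il7, which keeps skin T cells alive, changed by -1.76. In the TNF family 14 of 22 rose and 5 fell. Tnf itself moved little, with 9.01 and 9.25 in shikonin skin, against 8.02 and 7.95 in acetone skin (2.22-fold). When the floor was set at the 25th percentile, Tnf and Il10 no longer passed (0.30 and 0.32). Tnfaip6, a hyaluronan-binding protein that TNF and IL-1 induce, read 12.86 and 12.60 in shikonin skin, against 7.74 and 7.86 in acetone skin (30.5-fold), and Tnfsf14 (LIGHT) changed by 2.63.

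The IL-1 family split by member, with 12 of 22 higher and 8 lower. Il1b read 15.75 and 15.58 in shikonin skin, against 12.23 and 12.30 in acetone skin (10.5-fold). Il33, an alarmin stored in nuclei, Il1rn, the soluble receptor antagonist, and Il1f9, now called IL-36 gamma, changed by 1.20, 1.52 and 1.77. The other IL-36 cytokines, which differentiating keratinocytes make, went the opposite way. Il1f6 (IL-36 alpha) read 10.56 and 10.70 in shikonin skin, against 14.27 and 14.21 in acetone skin. Il1f5 (the IL-36 receptor antagonist) and Il1f8 (IL-36 beta) changed by -2.61 and -2.24, and Il18, stored in epidermis, by -2.03.

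Genes induced by interferon alpha and beta stood near background at 4 h. Of 34 measured 10 rose and 6 fell, with a median of 0.05. At 24 h their median change was 3.11, and for all 34 the signed change at 4 h lay below that at 24 h and the difference passed. Rsad2 (viperin) read 12.90 and 13.22 in shikonin skin, against 10.99 and 11.03 in acetone skin (4.14-fold), with Isg20 at 2.08. Ddx58, the RNA sensor RIG-I, changed by 1.86 on its brightest probe and by 0.41, not past the test, on its other probe. Ifit2 fell by 1.55 and Ifi44 fell by 1.51, though against acetone 24 h they changed by 0.13 and 0.75.

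GTPases induced by interferon gamma and genes of MHC class I presentation were lower, 15 of 23 measured, with 2 higher (median -0.76). Psmb9, a subunit of the immunoproteasome that cuts peptides for MHC class I, read 11.21 and 10.68 in shikonin skin, against 12.69 and 12.70 in acetone skin (3.36-fold lower), and Psmb8 changed by -1.33. B2m, the light chain of MHC class I, read 12.98 and 11.98 in shikonin skin, against 14.16 and 13.54 in acetone skin. Its call was lost without the shikonin 4 h replicate 2 array (-0.87) or the acetone 4 h replicate 1 array (-1.06). Gbp2, a guanylate-binding protein, changed by -1.30, and Tapbp, the tapasin chaperone, was an exception at 1.30. The log2 of the summed intensity of the list was 16.92 to 16.96 in shikonin skin, against 17.61 to 17.72 in acetone skin. In acetone skin at 24 h it was 16.95 to 17.06. Against acetone 24 h, Psmb9 and B2m changed by -1.28 and -0.98, Psmb8 by -0.45, and Gbp2 by -0.20, not past the test. At 24 h the median of the list was 1.14.

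Enzymes of prostaglandin synthesis and breakdown changed in both directions. Ptgs2, the inducible cyclooxygenase, read 13.82 and 12.93 in shikonin skin, against 8.57 and 8.89 in acetone skin (25-fold, 4.65 ± 0.26), and Ptges, the inducible prostaglandin E synthase, changed by 2.35. Ptgs1, the constitutive cyclooxygenase, read 10.26 and 10.08 in shikonin skin, against 12.50 and 12.52 in acetone skin (5.06-fold lower), while its other probe changed by -0.74. Hpgd, which degrades prostaglandins, and Hpgds, which makes prostaglandin D, changed by -2.11 and -1.95. Hdc, which makes histamine, read 13.29 and 13.33 in shikonin skin, against 7.85 and 9.07 in acetone skin, and is also a neutrophil marker. Acod1, the itaconate enzyme of activated macrophages and neutrophils, read 14.55 and 14.54 in shikonin skin, against 9.85 and 9.88 in acetone skin (25.7-fold, adjusted p = 1.31e-08), and Arg1 rose at least 5.8-fold from the floor. Of all 26 measured genes of prostanoids, histamine and nitric oxide 12 rose and 8 fell.

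Genes of the NRF2 response rose in part. Of 34 measured 16 rose and 7 fell, with a median of 0.32. Hmox1, haem oxygenase, read 15.70 and 15.70 in shikonin skin, against 12.34 and 12.28 in acetone skin (10.5-fold, 3.39 ± 0.09). Slc7a11, the cystine importer that feeds glutathione synthesis, was at the floor on both acetone arrays and read 12.19 and 12.10 in shikonin skin (at least 22.3-fold), and its other probe changed by 2.89. Srxn1, which repairs oxidized peroxiredoxins, read 13.89 and 13.91 in shikonin skin, against 11.67 and 11.84 in acetone skin (4.42-fold), and its other probes changed by 2.41 and 2.93. Gclm, a subunit of the enzyme that commits to glutathione, and Gpx2, an epithelial glutathione peroxidase, changed by 1.68 and 2.51. Hmox1, Srxn1, Gclm and Gpx2 had larger effects at 4 h than at 24 h, by 0.68, 0.67, 0.52 and 3.35. Slc7a11 went the other way (-0.71), with the acetone arrays at the floor at both times. Over the list the difference between times passed for 19 genes, and the signed change was larger at 4 h for 12 of them. The median change of the list at 24 h was 0.34. Not every detoxifying enzyme followed, and the glutathione transferase Gstm1 fell by 0.80.

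Metal-handling genes rose in 10 of 18 cases and fell in 0 by limma (1 at an unadjusted p under 0.05), with a median of 0.66. The metallothioneins Mt1 and Mt2, which bind zinc and thiol-reactive metals, could hardly be followed, since Mt1 was saturated on both shikonin arrays and read 16.00 and 15.88 in acetone skin. Mt4, of stratified epithelium, was within range at 12.96 and 12.44 in shikonin skin, against 11.40 and 10.60 in acetone skin (3.24-fold). Fth1, the ferritin heavy chain that stores iron, rose at least 3.06-fold.

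Stress genes of ATF4 and the endoplasmic reticulum rose in 17 of 31 cases and fell in 2 (median 0.50). Chac1, an ATF4 target that degrades glutathione, read 13.66 and 13.72 in shikonin skin, against 10.09 and 10.40 in acetone skin (10.9-fold), and its effect was 2.30 larger at 4 h than at 24 h. The factor Cebpb, the phosphatase subunit Ppp1r15a that restarts translation, and the death-linked factor Ddit3 (CHOP) changed by 1.88, 1.74 and 1.18. The effect on Ddit3 was smaller at 4 h than at 24 h (-1.63). Over the list the difference between times passed for 17 genes, and the signed change was larger at 4 h for only 5 of them. The median change of the list at 24 h was 0.96. Heat shock genes were closer to background, with 9 of 25 higher and 4 lower (median 0.08). The inducible chaperone gene Hspa1b read 14.31 and 13.93 in shikonin skin, against 13.79 and 13.73 in acetone skin, and did not pass (adjusted p = 0.131). Hspa2, a relative not known for heat induction, changed by 2.01, and the factor Hsf2 by -1.23.

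**Figure D5:**
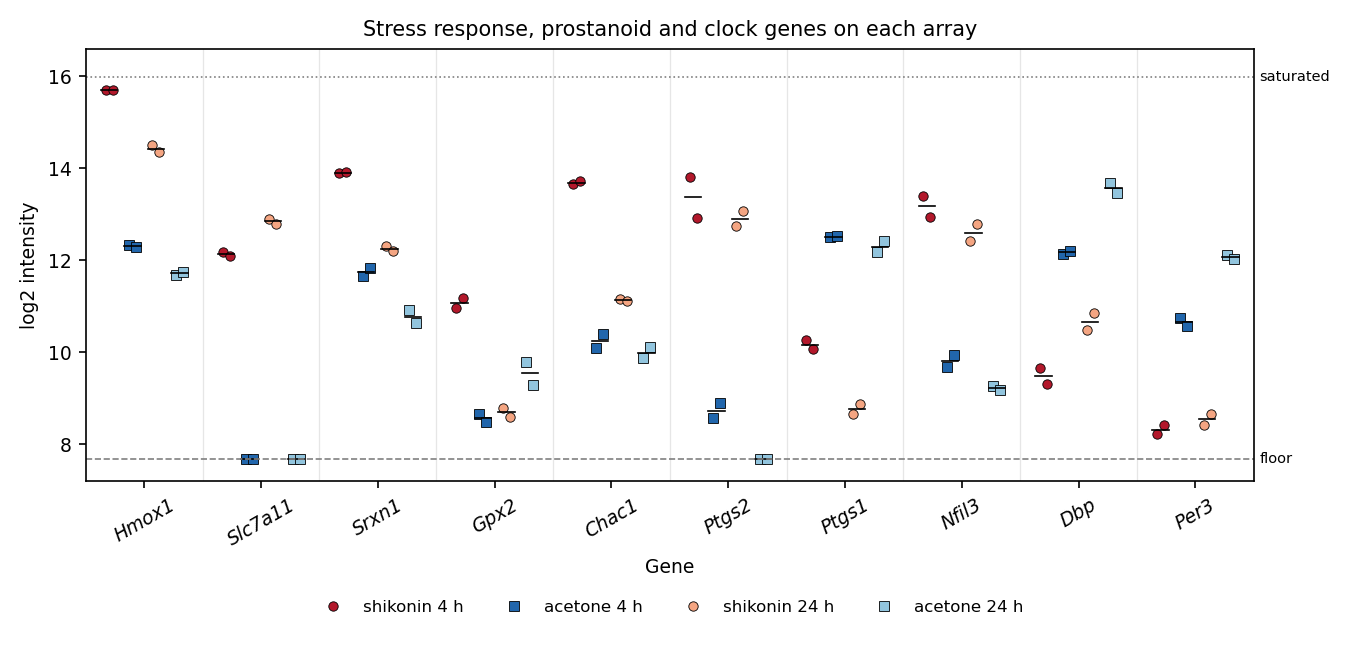
Log2 intensity of 10 stress response, prostanoid and clock genes on each array, in the order shikonin 4 h, acetone 4 h, shikonin 24 h and acetone 24 h, with the group mean as a bar, the floor as a dashed line and saturation as a dotted line. Hmox1, Slc7a11, Srxn1, Gpx2, Chac1, Ptgs2 and Nfil3 are higher on both shikonin 4 h arrays than on both acetone 4 h arrays, and Ptgs1, Dbp and Per3 are lower.

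Clock genes were split, with 6 of 18 higher and 8 lower. Nfil3 and Dbp bind the same promoter element, Nfil3 as a repressor and Dbp as an activator. Nfil3 read 13.40 and 12.95 in shikonin skin, against 9.68 and 9.94 in acetone skin (10.3-fold higher), and Dbp read 9.66 and 9.32 in shikonin skin, against 12.14 and 12.21 in acetone skin (6.44-fold lower). Tef, of the Dbp family, changed by -1.78. The period gene Per3 read 8.22 and 8.41 in shikonin skin, against 10.74 and 10.58 in acetone skin (5.08-fold lower), while Per1, which stress can induce directly, changed by 1.45. Against acetone 24 h Per1 changed by 0.47, not past the test. Shikonin and acetone skin were taken at the same 4 h after treatment, and the acetone level of Dbp was higher at 24 h, where it read 13.69 and 13.47. The time of day of treatment and of sampling was not given in the sources used here, and its part was not tested. The changes of Nfil3 and Dbp at 4 h and 24 h did not differ past the test (adjusted p = 0.97 and 0.493).

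Growth factors that act on the EGF receptor were among the genes that rose. Hbegf, released by wounded keratinocytes, read 13.03 and 13.25 in shikonin skin, against 10.93 and 10.86 in acetone skin (4.74-fold). Tgfa and Epgn changed by 2.10 and 1.66, and Ereg, with 9.90 and 8.85 in shikonin skin, against 11.28 and 11.51 in acetone skin, went the opposite way. Ereg did not pass against acetone 24 h (-0.41). Of 12 measured ligands and receptors 5 rose and 3 fell. The matricellular protein Thbs1 and the activin subunit Inhba rose at least 8.05-fold and at least 3.43-fold from the floor, and Vegfd, which acts on lymphatic vessels, changed by -1.39.

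Genes of glucose use and hypoxia did not move as a list, with 11 of 33 higher and 11 lower (median 0.03). The transporters named here are taken from those that rose. Slc2a3, a glucose transporter of leukocytes, read 12.95 and 13.20 in shikonin skin, against 8.80 and 8.82 in acetone skin (19.3-fold). Slc16a3, which exports lactate, read 11.75 and 11.62 in shikonin skin, against 8.19 and 8.44 in acetone skin (10.3-fold), and Slc2a1 changed by 1.17. Adm, a vasodilator peptide induced by hypoxia and inflammation, read 14.32 and 14.24 in shikonin skin, against 10.05 and 10.11 in acetone skin (18.3-fold). Respiratory chain genes ran lower, with 20 of 42 lower and 3 higher (median -0.39). The largest named fall there, Atp5c1 (-1.20), had another probe near the floor that changed by 0.48 and did not pass.

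Dermal genes fell. Of 25 measured fibroblast and matrix genes 18 fell and 2 rose (median -0.61), and the log2 of their summed intensity was 18.53 on both shikonin arrays, against 18.95 to 19.01 in acetone skin. Fbn1, which builds the microfibrils of elastic tissue, read 11.38 and 11.27 in shikonin skin, against 12.89 and 12.71 in acetone skin (2.78-fold lower). Col1a1 changed by -0.87, and Lum and Col1a2, a proteoglycan and a collagen of the dermis, by -1.57 and -1.21 with the shikonin arrays unequal, so that Col1a2 no longer passed without the shikonin 4 h replicate 2 array (-0.81). Skeletal muscle genes fell in 22 of 23 cases and rose in 0 (also 0 at an unadjusted limma p under 0.05), with a summed level of 17.83 to 17.86 in shikonin skin, against 18.58 to 18.61 in acetone skin. Acta1, skeletal actin, read 14.16 and 14.28 in shikonin skin, against 14.92 and 15.01 in acetone skin, and Pvalb, the calcium buffer of fast fibres, changed by -1.16. Myh1 changed by -1.29 on its brightest probe and by -0.05 on another near the floor. Pdgfrb, the receptor that marks pericytes and dermal fibroblasts, read 10.75 and 10.72 in shikonin skin, against 12.59 and 12.68 in acetone skin (3.74-fold lower). How much dermis or muscle each sample held was not tested.

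Proteases that remodel matrix moved against the matrix genes. Of 28 measured metalloproteinases, ADAMTS proteases and inhibitors 15 rose and 4 fell (median 0.64). Adamts4, an aggrecanase, read 13.47 and 13.49 in shikonin skin, against 8.69 and 8.90 in acetone skin (25.7-fold). Mmp9, a gelatinase that neutrophils also carry, read 13.59 and 13.74 in shikonin skin, against 10.82 and 10.74 in acetone skin (7.39-fold), whereas Mmp2, the gelatinase of fibroblasts, fell by 0.95. The collagenase Mmp13 and the inhibitor Timp1 changed by 1.81 and 3.18. Plaur, the urokinase receptor that focuses plasmin at the cell edge, read 14.70 and 14.85 in shikonin skin, against 10.56 and 10.54 in acetone skin (18.7-fold). Of 40 measured genes of actin and the cytoskeleton 21 rose and 5 fell, with rises of Lcp1 (2.31), the plastin of leukocytes, and Pfn1 (1.94), profilin.

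Genes of epithelial-mesenchymal transition, the program by which epithelial cells take on traits of fibroblasts, showed no common direction. Of 22 measured 3 rose and 7 fell, near the shares over all genes. Zeb1, a repressor of E-cadherin, read 12.01 and 11.92 in shikonin skin, against 12.26 and 12.26 in acetone skin, and did not pass (-0.29 ± 0.12, adjusted p = 0.0634). Zeb2 gave no settled answer, since its 3 probes changed by -0.30 (not past), by -1.74 (adjusted p = 0.00138) and by 2.02 (adjusted p = 3.99e-05). Cdh1, E-cadherin, read 13.85 and 13.60 in shikonin skin, against 14.16 and 13.98 in acetone skin (-0.35 ± 0.16, adjusted p = 0.106). Vim, vimentin, was saturated on every 4 h array and could not be compared. S100a4, also called FSP-1, read 14.19 and 14.44 in shikonin skin, against 15.15 and 15.07 in acetone skin, and fell by 0.79. The mesenchymal factors Twist1 and Snai2 changed by -1.09 and -1.03, and Cdh11, a cadherin of fibroblasts, by -1.35.

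Genes of the aryl hydrocarbon receptor and its P450 enzymes fell in 9 of 16 cases and rose in 1 (median -0.53). Ahr, the receptor that senses planar aromatic compounds, Ahrr, its repressor, and Cyp1a1, its best known target, read less in shikonin skin, with changes of -1.35, -2.29 and -1.28. Ahrr read 8.45 and 8.37 in shikonin skin, against 10.72 and 10.67 in acetone skin. Aldh3a1, an aldehyde dehydrogenase of surface epithelia, changed by -1.72.

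Ribosome biogenesis genes rose in 13 of 29 cases and fell in 1 (median 0.20), with Nop56, a core protein of the particles that modify ribosomal RNA, at 11.95 and 12.20 in shikonin skin, against 10.58 and 10.70 in acetone skin (2.71-fold). Cell cycle genes were split evenly, 8 higher and 8 lower of 36. The replication genes Mcm6, Gmnn and Pcna changed by -1.50, -1.61 and -0.85, and Ccnd2, a cyclin of early growth, read 11.71 and 11.31 in shikonin skin, against 9.81 and 9.89 in acetone skin (3.17-fold higher).

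Among the 15 genes that fell most were also genes of other roles. Osr2, a zinc finger factor of mesenchyme, read 8.76 and 9.0 in shikonin skin, against 12.14 and 12.18 in acetone skin (9.73-fold lower). Mrgprf, an orphan receptor of smooth muscle and stroma, read 8.73 and 8.34 in shikonin skin, against 11.66 and 11.93 in acetone skin, and its fall was larger at 4 h than at 24 h. Gucy1a1, a subunit of the receptor for nitric oxide, was at the floor on both shikonin arrays, against 10.97 and 10.99 in acetone skin, and Rnf227 changed by -3.16.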

How the data were processed

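Skin RNA was read on 8 arrays of 1 colour, and the 4 arrays of skin taken 4 h after treatment were compared. Following the paper's methods, the authors labelled antisense RNA with Cy5, hybridized it to the Mouse OneArray and read the spots with GenePix, and Spotfire made the present or absent calls. The deposited table, made by the authors, gives a linear intensity for each probe on each array. Its quantiles match between arrays, from which normalization was inferred. The normalization method, the background correction and the reason 16069 probes are blank on all 8 arrays were each not given in the sources used here.

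Intensities of 13853 probes were raised to at least 203.4, the 5th percentile of all values, and log2 was taken. Means of 4 groups were fitted to all 8 arrays with limma 3.58.1 in R 4.3.3 (eBayes with an intensity trend, 4 residual degrees of freedom), two-sided, with Benjamini-Hochberg adjustment over 13853 probes. The contrasts set shikonin against acetone within 4 h and within 24 h, and then the 4 h effect against the 24 h effect. The brightest probe stood for its gene, and 1814 probes had their symbol updated. A fold is at least its size where the dimmer group was at the floor or the brighter saturated on an array.

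Named genes are the 15 largest changes each way among those past the test in all 4 pairings of arrays, up to 4 each way per list with members that define it, and genes the paper names. The text gives examples of these. Members and lists were chosen with earlier results of these data known, so lists carry counts and medians and no test. Motifs were searched in 300 bases per promoter. The fit was tested on simulated data.

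Alternatives covered the floor, dim probes, normalization, the intensity trend, robust variance, array weights, the replicate number as a block, each array left out, the 4 h arrays alone, the acetone 24 h arrays as control, the mean of a gene's probes and other thresholds. The microRNA arrays, PCR, protein and staining of the paper were not analysed here.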

Additional observations from a re-analysis of the deposited data

Results flagged for a closer look

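The contrast of shikonin with acetone skin differed between 4 h and 24 h for 5999 of 13853 probes. This was the limma test of the difference, with Benjamini-Hochberg adjustment, and a shift of the acetone arrays between times also enters it. Sprr1b, which passed, averaged 12.19 at 4 h and 12.24 at 24 h in shikonin skin. In acetone skin it averaged 13.41 and 10.50. Among the 15 genes that rose most at 4 h, 5 passed the test in opposite directions at the 2 times. The 4 h effect of Idi2 exceeded its 24 h effect by 8.57 on the log2 scale, that of Krt71 by 8.20, that of Krt26 by 7.45, that of S100a3 by 7.01 and that of Crym by 5.92. Each was brightest on the 2 shikonin 4 h arrays of all 8.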

How the results depend on the processing

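With a 2-fold minimum added to the adjusted p, 1230 probes rose, 972 fell and 3376 differed in effect between 4 h and 24 h, against 2936, 3514 and 5999 without it. At an adjusted p of 0.01, 2289 fell and 3810 differed. The 2-fold rule in both pairs of 1 replicate number, with no p, gave 1022 higher and 699 lower. Leaving out each array in turn gave 2252 to 2952 higher, 2308 to 3548 lower (fewest without acetone 4 h replicate 2) and 4436 to 6013 differing. The deviations of the replicate 1 arrays from their group means correlated at -0.04 between the 4 h groups, and at -0.21 to 0.21 over all pairs of groups. With 2 arrays a group this cannot show whether equal replicate numbers share an experiment. With the replicate number as a block 2899 rose, 3453 fell and 5898 differed.

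The choice of acetone arrays turned the direction of some named genes and lists. With those of 24 h, the direction turned for Sprr2i (1.61), Sprr1b (1.68), Cxcl10 (1.42), Ifi44 (0.75), Cd163 (0.49), Ccl5 (0.19), Zeb2 (0.16), Ifit2 (0.13), Cdh1 (0.06) and Krt14 (-0.04), and for the medians of stress keratins (1.95), T cell chemokines (0.70), monocytes and macrophages (0.48) and glycolysis (-0.01). With all 4 acetone arrays it turned for Sprr1b (0.23), Cxcl10 (0.16) and the medians of stress keratins (0.88), monocytes and macrophages (0.06) and glycolysis (-0.01). Values near 0 turned elsewhere. These were Vim (0.04) and junctions (0.03) with cyclic loess, junctions (0.05) with the mean of all probes, monocytes and macrophages (0.02) without dim probes, and, with an array left out, Zeb2 (-0.63 to 0.02, highest without shikonin 4 h replicate 2), the transition list (-0.35 to 0.01, highest without the same array) and glycolysis (-0.08 to 0.09, lowest without shikonin 4 h replicate 1). The cause was not tested. Of 2887 comparisons of named genes with other settings, 2839 kept direction and side of the threshold, as did 1769 of 1784 with an array left out. Some settings could change little. Quantile normalization, run on values whose quantiles already match, kept all 223 named genes, and the acetone 24 h arrays as control kept 202.

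With 2 arrays a group, small changes cannot be resolved. The floor hides how low a dim gene is, and saturation hides how far Cxcl1, Cxcl2, Ptx3, Mt1 and Vim moved.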
